A study of Sorghum bicolor with 9 samples.

Results

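The genes of cellulose synthesis, lignin synthesis and the laccase family were followed in sorghum (Sorghum bicolor) leaves at 3 levels of water supply. They were 154 of the 34366 genes in the deposited table of mRNA levels. A gene was taken where the name of its best Swiss-Prot match contained the name of a cellulose synthase, laccase, COBRA protein, phenylalanine ammonia-lyase, 4-coumarate--CoA ligase, cinnamoyl-CoA reductase, cinnamyl alcohol dehydrogenase, caffeic acid O-methyltransferase or caffeoyl enzyme. The names alone decided which genes were taken, but the set and its rule were chosen with earlier results of these data known. None of the matches was to a sorghum protein (113 were to rice, 26 to Arabidopsis, 9 to petunia, 4 to sugarcane, 1 to tobacco and 1 to maize), so every role given below is the role of the matched protein in another species. The groups were plants with a normal water supply (control), with mild drought and with severe drought, each with 3 libraries of total RNA, numbered 1 to 3. The labels give no cultivar, plant age or length of drought, and they do not say whether the libraries came from separate plants. All p-values therefore measure the spread between these libraries, which may be technical.

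Cellulose is spun at the plasma membrane by complexes of cellulose synthase catalytic subunits, with different subunits for the thin primary wall of growing cells and for the thick secondary wall of xylem and fibres. In rice the subunits 4, 7 and 9 are those of the secondary wall. COBRA-like proteins are anchored at the cell surface and are needed for ordered cellulose deposition, and cellulose synthase-like proteins make other wall polysaccharides such as mixed-linkage glucan and mannan. Lignin starts with phenylalanine ammonia-lyase, which removes the amino group of phenylalanine. Later steps include activation by 4-coumarate--CoA ligase and methylation by caffeoyl-CoA and caffeic acid O-methyltransferases. They also include reduction by cinnamoyl-CoA reductase and cinnamyl alcohol dehydrogenase. The resulting alcohols are polymerised in the wall by laccases and peroxidases. In sorghum, brown midrib mutants are known for loss of enzymes of this pathway and lower lignin content.

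The families differed widely in level. Levels between genes are given as FPKM (fragments scaled by transcript length and by mapped fragments), as deposited and averaged over the 9 libraries, with at least 1 FPKM counted as present. By that measure 76 of the 154 genes were present. All but 1 of the 8 phenylalanine ammonia-lyase genes were present, led by SORBI_3004G220400 at 248 FPKM, which held 48.5% of the family's summed level. Of the 12 cellulose synthase catalytic subunits 10 were present, led by subunit 3 (SORBI_3002G118700) at 85.4 FPKM. The laccases showed the opposite profile, since 4 of 27 were present and a single gene, Laccase-7 (SORBI_3003G357600), held 71.5% of the summed level with 20.3 FPKM. One caffeic acid O-methyltransferase gene (SORBI_3007G047300, 78.6 FPKM) held 99.9% of the level of its 3-gene family. Among the 14 cellulose synthase-like genes, E6 (SORBI_3002G237900) reached 145 FPKM. Present genes numbered 4 of 6 among the 4-coumarate--CoA ligases, 10 of 19 among ligase-like genes and 13 of 28 among cinnamoyl-CoA reductases. They numbered 7 of 10 among caffeoyl enzymes, 7 of 15 among cinnamyl alcohol dehydrogenases, 3 of 10 among COBRA-like genes and both of the 2 cellulose synthase interactive proteins.

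Read depth allowed 99 of the 154 genes to be tested, and 7 of the other 55 had no read in any library. The gene table held 27854146 to 41228478 counts per library. Untested genes had at least 1 read in 40 cases in control 2 and in 38 cases in mild drought 2, against 4 to 19 in each of the other 7 libraries. Untested genes of the whole table showed the same, with a read in 63.4% of them in control 2 and 54.8% in mild drought 2, against 9.51% to 28.3% in the others. For the untested genes a difference was not detectable at this depth.

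Leaf identity was checked with 24 leaf markers, 23 of them present and 1 at 0 in all libraries. Their summed level lay between 12864.67 and 36764.03 FPKM in all 9 libraries. Single markers moved in opposite directions. In mild drought 1 to 3 pyruvate, phosphate dikinase 1 (SORBI_3009G132900) had 3508, 1236 and 4546 FPKM. A chlorophyll a-b binding protein (SORBI_3001G177000) had 758, 3652 and 897 FPKM there. Control 3 and mild drought 2 stood apart from the rest of their groups. On the first principal component of all tested genes other than the 99, which carried 28.6% of the variance, they scored 75.9 and 122, while the other control and mild drought libraries scored between -61.1 and -45.9. Severe drought 1 and 2 lay between them, at 36.5 and 27.9, and severe drought 3 scored -50.8. The summed level of 21 vascular and xylem markers, 7 of them present, showed the same split within control and within mild drought. Within severe drought only library 2 was high, although library 1 had the higher score on the component. The sum was 14.94, 16.9 and 52.19 FPKM in control 1 to 3 and 17.41, 62.21 and 18.21 FPKM in mild drought 1 to 3. In severe drought 1 to 3 it was 23.95, 51.37 and 20.91 FPKM. Fasciclin-like arabinogalactan protein 11 (SORBI_3003G062000) alone gave 20.3 FPKM of the sum in control 3, 11.2 in mild drought 2 and 26 in severe drought 2. It had 5.96 and 2.56 FPKM in severe drought 1 and 3. Not every marker followed the sum, since WALLS ARE THIN 1 (SORBI_3007G166900) was lowest in severe drought 2, at 1.16 FPKM. No marker of that list was at 0 in all libraries. The part of this split in the results below was not tested, and for several genes that follow it values are also given without control 3 and mild drought 2. That choice was made after the values were seen, and severe drought 2 was kept. It can by itself raise the severe drought values of such genes, so the values given without the 2 libraries are a description only. The summed level of 10 guard cell markers, 4 of them present, was 39.04, 38.22 and 37.23 FPKM in control, 31.82, 15.92 and 27.35 FPKM in mild drought and 32.95, 19.77 and 15.84 FPKM in severe drought. Both drought groups thus lay below control in this FPKM sum, but not in each of its genes. On the log2(FPKM + 1) scale the median difference of all genes was itself -0.225 for severe drought against control, and 0.011 for mild drought. The part of that scale in the guard cell sums was not tested. Potassium channel KAT1 (SORBI_3004G107500) had 20.8, 13.6 and 24.5 FPKM in control and 11.6, 7.2 and 4.54 FPKM in severe drought. The anion channel SLAC1 (SORBI_3006G186500) had 12.6, 16.9 and 7.6 FPKM in control and 14.9, 8 and 8.65 FPKM in severe drought, with overlapping groups. The part of these markers in the results was not tested either.

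**Figure D1:**
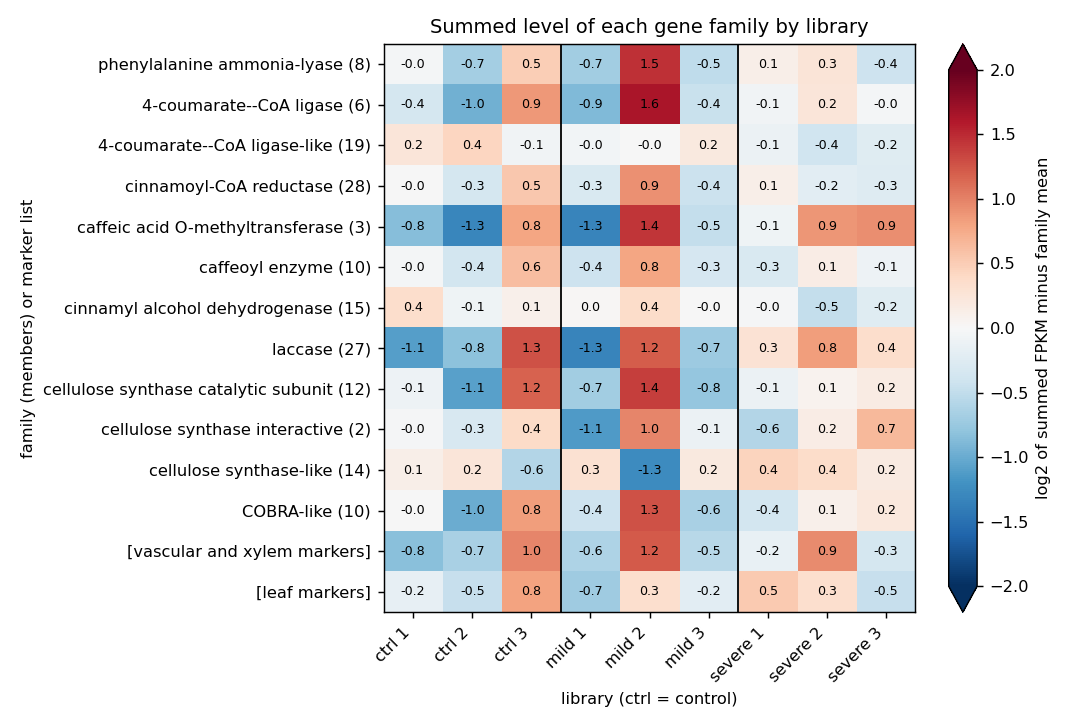
Summed FPKM of each gene family in each library, as log2 minus the family's mean over the 9 libraries (colour and printed value), with 2 marker lists below. Control 3 and mild drought 2 are the highest libraries of most lignin and cellulose families, while the cellulose synthase-like family is lowest there.

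The main test was edgeR's quasi-likelihood test on the counts, with Benjamini-Hochberg adjustment over the 22080 genes tested. It called none of the 99 genes at an adjusted p under 0.05 in any of the 3 comparisons, and it called no gene at all, so the background was 0.0% each time. The lowest adjusted p among the 99 was 0.565 for mild drought against control, 0.214 for severe drought against control and 0.996 for severe against mild drought. At an unadjusted p under 0.05, edgeR listed 6 of the 99 (6.06%) for mild drought against control, where it listed 6.4% of all genes. Of the 6, 2 were higher and 4 lower, beside 3.34% and 3.07% of all genes. For severe drought against control it listed 13 (13.1%) against 8.67% of all genes, 4 higher and 9 lower beside 4.02% and 4.65%. For severe against mild drought it listed 5 (5.05%) against 3.69%, 2 higher and 3 lower beside 1.35% and 2.34%. The median log2 difference of the 99 genes was 0.012, 0.016 and 0.031 in these comparisons, beside 0.021, -0.021 and -0.032 for all genes. Without control 3 and mild drought 2 it was -0.12, 0.272 and 0.391, beside -0.004, 0.006 and 0.02 for all genes.

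DESeq2, run as an alternative on the same genes, made a few calls at an adjusted p under 0.05. It called 4 of the 99 genes for severe drought against control, 2 higher (2.02%) and 2 lower (2.02%), where it called 0.761% of all genes higher and 0.765% lower, 1.53% in all. For mild drought against control it called none of the 99 and 0.942% of all genes, 0.548% higher and 0.394% lower. For severe against mild drought it called none of the 99 and 0.104% of all genes, 0.0272% higher and 0.077% lower. The 4 genes were Laccase-10, Laccase-12, COBRA-like protein 1 and cellulose synthase-like protein E2. Each is described below with both tests, since edgeR called none of them.

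**Figure D2:**
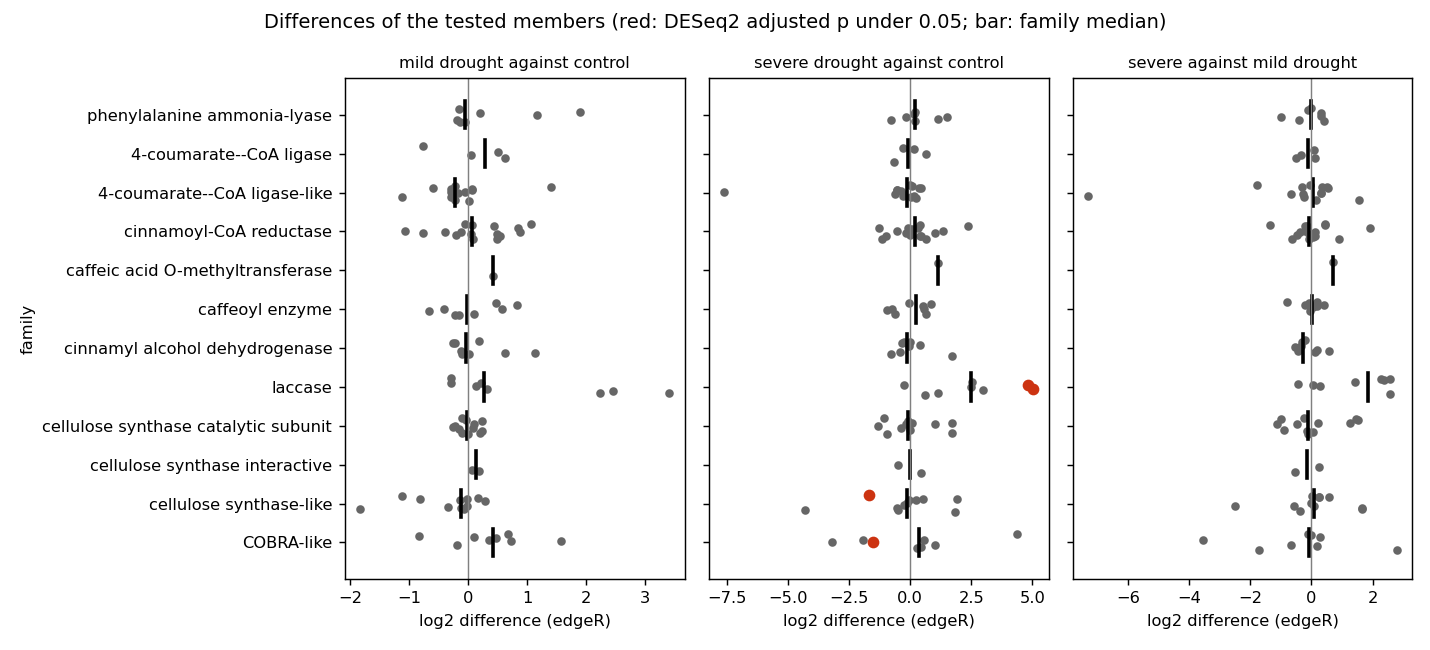
Log2 difference from edgeR (x axis) of each tested gene (point) by family (y axis) in the 3 comparisons, with the family median as a bar and the 4 genes called by DESeq2 in red. The laccase median for severe drought against control lies at 2.51, while the other families with more than 1 tested gene have medians close to 0. Only laccases that passed the read filter are shown, which a gene low in control can do through drought libraries alone. The point near the left edge of the severe drought panels is ligase-like 3, which had no read in severe drought, so its fitted value is no bound.

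Laccases oxidise the lignin alcohols in the wall. Laccase-10 (SORBI_3001G422300, chromosome 1, 70308577 to 70311856) had 0.53, 0.811 and 0.47 CPM (counts scaled to the TMM-adjusted library size) in control 1 to 3. In mild drought 1 to 3 it had 1.01, 5.15 and 2.36 CPM, and in severe drought 1 to 3 it had 9.89, 33 and 7.94 CPM. The 3 groups did not overlap, with control lowest and severe drought highest. Severe drought exceeded control by 4.81 on the log2 scale (SE 0.8, n = 3 libraries a group), or 28-fold. The adjusted p was 6.89e-08 by DESeq2 and 0.215 by edgeR, and DESeq2 called the gene with each of the 9 libraries left out in turn, at an adjusted p of at most 7.01e-05. Mild drought exceeded control by 2.24 (SE 0.73), at an adjusted p of 0.655 by edgeR and 0.123 by DESeq2. Within mild drought and within severe drought the library with the highest vascular marker sum, number 2 in both, also had the most Laccase-10, and within control library 3, the highest in that sum, had the least. Its part in these differences was not tested.

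Laccase-12 (SORBI_3003G352800, chromosome 3, 67174664 to 67177905) had 0, 0.642 and 1.75 CPM in control, 0.662, 10.9 and 1.52 CPM in mild drought and 11, 42.9 and 25 CPM in severe drought. Severe drought lay above both other groups, although its lowest library nearly met mild drought 2. The highest library of each group for Laccase-12, control 3, mild drought 2 and severe drought 2, was also the highest for the vascular marker sum. The difference between severe drought and control was 5.03 on the log2 scale (SE 1.47), with an adjusted p of 0.00682 by DESeq2 and 0.422 by edgeR. That call depended on the libraries. DESeq2 kept it in 4 of 9 fits with 1 library left out, gave no adjusted p in 3, and lost it without control 2 (adjusted p 0.28) and without mild drought 3 (0.074).

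Next to it lies Laccase-4 (SORBI_3003G352700, chromosome 3, 67166655 to 67170817), which is named here after its values were seen. It had 0.636, 0.237 and 4.05 CPM in control, 0.126, 4.27 and 0.96 CPM in mild drought and 7.21, 15.1 and 6.16 CPM in severe drought. Severe drought again lay above both other groups, and control 3 and mild drought 2 were the highest libraries of theirs. The log2 difference of severe drought from control was 2.52 (SE 1.24), with an adjusted p of 0.625 by edgeR and 0.331 by DESeq2. The gene model shares 808 bases with another one, so its counts are uncertain.

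Laccase-7, the most abundant laccase of these leaves, did not share that pattern. Its values were 27.7, 26.3 and 150 CPM in control, 23.6, 105.3 and 36.4 CPM in mild drought and 55, 55.6 and 61.9 CPM in severe drought. The 3 severe libraries agreed closely and lay between the outlying library and the others of control and of mild drought. Its log2 difference between severe drought and control was -0.24 (SE 0.74, adjusted p 0.963 by edgeR), and 1.09 once control 3 and mild drought 2 were left out. Of the 8 tested laccases, 7 had a log2 difference above 0 for severe drought against control, as had 10588 of all 22080 genes. Their median was 2.51, with a first quartile of 0.993, beside a median of -0.021 for all genes. In 3 of the 8 severe drought lay wholly above control, and in none below, beside 7.64% and 9.82% of all genes. The other 19 laccases had a mean of at most 0.104 FPKM and were not tested. A gene low in control can pass the read filter through drought libraries alone. How far this raised the count and the median of the 8 was not tested, so these values are a description.

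**Figure D3:**
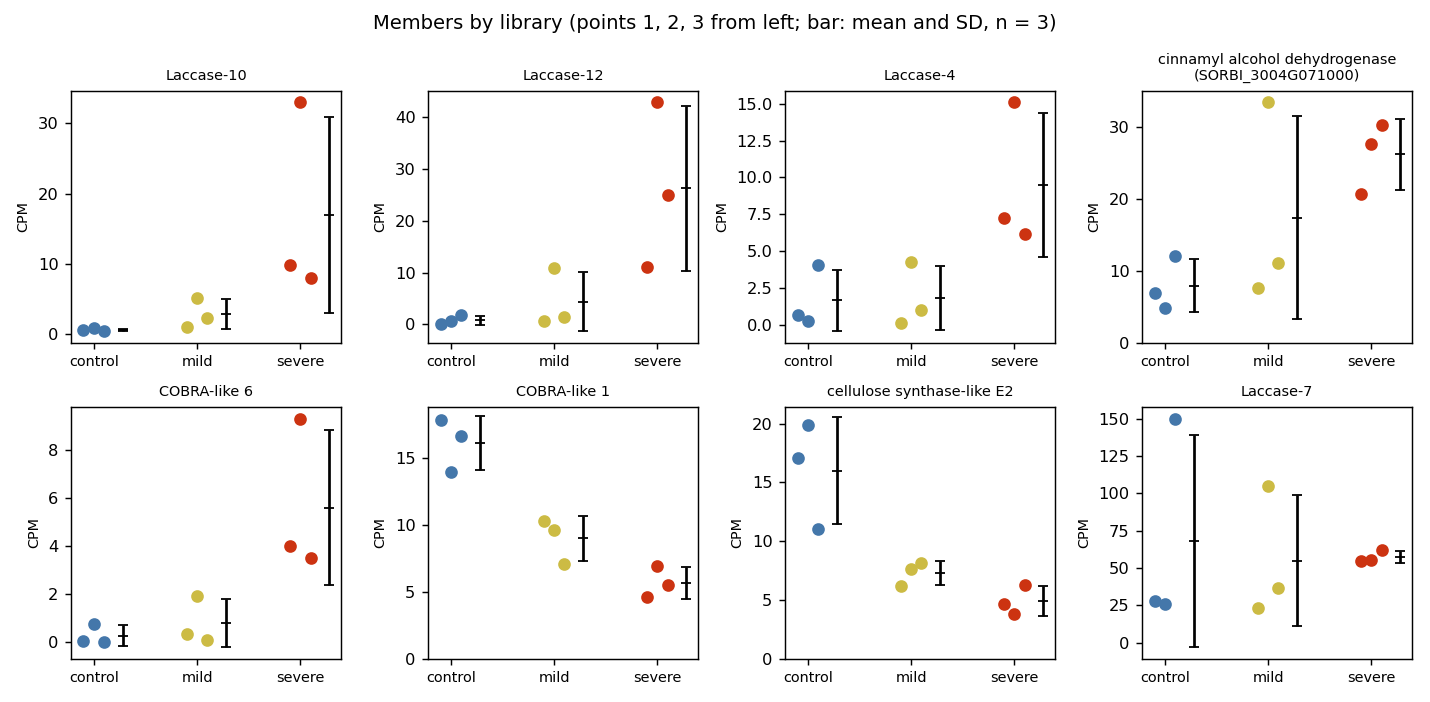
CPM (y axis) of 8 genes by group (x axis), with libraries 1, 2 and 3 from left to right in each group, and the mean and SD (n = 3) as a bar. The upper row and COBRA-like 6 show genes with severe drought wholly above control, COBRA-like 1 and cellulose synthase-like E2 the reverse, and Laccase-7 a gene whose 150 CPM in control 3 and 105.3 CPM in mild drought 2 set the group means.

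COBRA-like proteins guide cellulose deposition. COBRA-like protein 1 (SORBI_3002G368100, chromosome 2, 72786586 to 72790678) had 17.8, 13.9 and 16.6 CPM in control, 10.3, 9.59 and 7.08 CPM in mild drought and 4.59, 6.9 and 5.47 CPM in severe drought. The 3 groups did not overlap, with the order opposite to that of Laccase-10. The log2 difference was -1.51 (SE 0.25) for severe drought against control, with an adjusted p of 1.68e-05 by DESeq2 and 0.214 by edgeR, and DESeq2 called it in 9 of 9 fits with a library left out. It was -0.84 (SE 0.24) for mild drought against control, with an adjusted p of 0.603 by edgeR and 0.094 by DESeq2. Its value in control 3 lay between those of control 1 and 2, and its value in mild drought 2 between those of mild drought 1 and 3.

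COBRA-like protein 6 (SORBI_3002G368300, chromosome 2, 72793782 to 72796955), the neighbouring gene, is named after its values were seen. It had 0.053, 0.777 and 0 CPM in control, 0.347, 1.94 and 0.08 CPM in mild drought and 4.01, 9.32 and 3.5 CPM in severe drought. Severe drought was wholly above both other groups, where in its neighbour it was wholly below both. Control and mild drought overlapped, and control 1 and 3 were at or near 0 CPM, so the size of the difference is uncertain. The log2 difference of severe drought from control was 4.37 (SE 1.53), with an adjusted p of 0.495 by edgeR and 0.0778 by DESeq2. In COBRA-like proteins 3 and 5, the most abundant of the family, control 3 and mild drought 2 were the highest libraries of their groups. A severe drought library exceeded control 3 in both genes. COBRA-like protein 3 (SORBI_3001G086200, 31.9 FPKM) had 61.9, 27.8 and 126 CPM in control, 41.9, 140 and 48.3 CPM in mild drought and 55.4, 75.9 and 127 CPM in severe drought. The match to rice BRITTLE CULM1, COBRA-like protein 5 (SORBI_3001G336700), had 23.6, 10.3 and 53.3 CPM in control, 31.1, 83.6 and 24.5 CPM in mild drought and 34, 71.5 and 22.6 CPM in severe drought. The groups overlapped for both genes, with log2 differences of 0.26 and 0.55 and adjusted p of 0.952 and 0.885 in edgeR for severe drought against control. Without control 3 and mild drought 2 the differences were 0.94 and 1.33 (DESeq2 adjusted p 0.228 and 0.116). A COBRA-like protein 7 (SORBI_3002G427400) was low, with 2.49, 2.91 and 1.28 CPM in control, 1.26, 3.67 and 0.88 CPM in mild drought and 0.442, 0.932 and 0.394 CPM in severe drought. Severe drought lay below control, with a log2 difference of -1.91 (SE 0.69, edgeR adjusted p 0.502).

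Cellulose synthase-like protein E2 (SORBI_3004G255200, chromosome 4, 60147607 to 60151388) had 17.1, 19.9 and 11 CPM in control. It had 6.15, 7.6 and 8.12 CPM in mild drought and 4.66, 3.77 and 6.31 CPM in severe drought. Both drought groups lay below control without overlap, and they overlapped each other. The log2 difference was -1.70 (SE 0.3) for severe drought against control, with an adjusted p of 0.00016 by DESeq2 and 0.294 by edgeR, and DESeq2 called it in 9 of 9 fits with a library left out. For mild drought against control it was -1.13 (SE 0.3), with an adjusted p of 0.565 by edgeR and 0.0547 by DESeq2.

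Its abundant relative E6 (SORBI_3002G237900) had 448, 493 and 236 CPM in control, 484, 127 and 546 CPM in mild drought and 504, 607 and 595 CPM in severe drought. Control 3 and mild drought 2 were its 2 lowest libraries, the reverse of the cellulose synthase subunits described below. Severe drought lay above control without overlap, at a log2 difference of 0.54 (SE 0.5, edgeR adjusted p 0.834). H1 proteins of this family make mixed-linkage glucan in grasses. The H1 gene SORBI_3006G080800 had 24.8, 49.3 and 31.4 CPM in control, 79.8, 1.27 and 46.6 CPM in mild drought and 147, 176 and 76.2 CPM in severe drought. Severe drought lay above control (log2 difference 1.92, SE 1.02, edgeR adjusted p 0.649), and mild drought 2 was far below every other library. Its model shares 36530 bases with a second H1 gene, SORBI_3006G080700, so the division of counts between them is uncertain. Of the 11 tested cellulose synthase-like genes, severe drought lay wholly above control in 2 and wholly below in 1, beside 7.64% and 9.82% of all genes.

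Cellulose synthase catalytic subunits differed more within groups than between them, which is not particular to these genes. Groups accounted for a median of 11% of a subunit's variance, beside 23.1% for all genes. Subunit 3 (SORBI_3002G118700, chromosome 2, 14784464 to 14790415) had 286, 111 and 962 CPM in control, 190, 755 and 218 CPM in mild drought and 329, 438 and 601 CPM in severe drought. The groups overlapped throughout, and the highest library exceeded the lowest 8.68-fold, both being controls. Its log2 difference for severe drought against control was 0.01 (SE 0.78, edgeR adjusted p 0.998), and 1.19 without control 3 and mild drought 2 (DESeq2 adjusted p 0.0568). For subunit 8 it was -0.10 with all libraries and 0.75 without those (DESeq2 adjusted p 0.22), and for subunit 6 it was -0.95 and 2.10 (0.134). For subunit 5 it was 0.09 and 0.86, with a DESeq2 adjusted p of 0.0191 without those libraries. Control 3 and mild drought 2 were left out after they were seen to be high, so the values without them are a description only. Subunit 8 (SORBI_3002G075500) went from 69.9 CPM in control 2 to 418 CPM in mild drought 2, subunit 5 (SORBI_3001G021500) from 81.2 to 425 CPM, and a subunit 1 gene (SORBI_3009G063400) from 73.9 to 303 CPM, between the same libraries. Subunit 2 (SORBI_3001G045700) was the steadiest, between 65.8 and 106 CPM. The second subunit 1 gene (SORBI_3003G049600) lay between 31.9 and 98.1 CPM. In 8 of the 12 subunits control 3 and mild drought 2 were both above the other 7 libraries, which held for 21 of the 99 tested genes (21.2%) and for 11.3% of all genes. This description was made after the values were seen. It carries no test. None of the 12 subunits had groups that did not overlap in any comparison, beside 7.64% of all genes higher and 9.82% lower for severe drought against control.

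**Figure D4:**
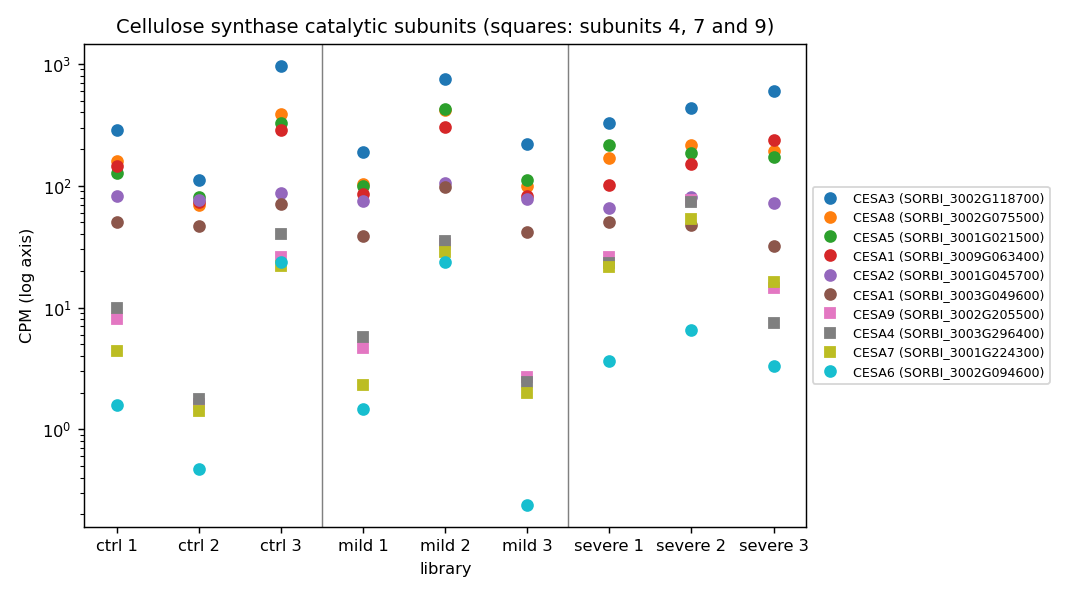
CPM (log axis) of the 10 cellulose synthase catalytic subunits with a mean of at least 5 CPM in each library, with squares for subunits 4, 7 and 9. Control 3 and mild drought 2 are high for most subunits, while subunits 4, 7 and 9 are highest in severe drought 2.

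The secondary-wall subunits had their own order. Subunit 9 (SORBI_3002G205500) had 8.05, 1.62 and 25.9 CPM in control, 4.66, 33.3 and 2.68 CPM in mild drought and 25.9, 76 and 14.4 CPM in severe drought. Subunit 7 (SORBI_3001G224300) had 4.4, 1.42 and 22 CPM in control, 2.3, 28.3 and 2 CPM in mild drought and 21.5, 52.9 and 16.1 CPM in severe drought. Subunit 4 (SORBI_3003G296400) had 9.96, 1.76 and 40 CPM in control, 5.74, 35 and 2.44 CPM in mild drought and 23.1, 73.4 and 7.44 CPM in severe drought. All 3 were highest in severe drought 2, and control 3 and mild drought 2 were the highest of their groups. Their log2 differences for severe drought against control were 1.71 (SE 1.17), 1.70 (SE 1.21) and 1.01 (SE 1.27), with edgeR adjusted p of 0.736, 0.754 and 0.887. In bulk leaf RNA, more cells of a type and more RNA per cell cannot be told apart. Subunit 6 (SORBI_3002G094600) reached 23.8 CPM in control 3 and 23.5 CPM in mild drought 2, and stayed between 0.24 and 6.48 CPM elsewhere. The cellulose synthase interactive proteins link the synthase complex to microtubules. Interactive protein 1 (SORBI_3010G090500) had 251, 155 and 426 CPM in control, 144, 562 and 241 CPM in mild drought and 248, 396 and 473 CPM in severe drought, and interactive protein 3 (SORBI_3005G064100) lay between 20.5 and 62.2 CPM. Neither had groups that did not overlap.

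Phenylalanine ammonia-lyase is the entry to the pathway. The most abundant gene, SORBI_3004G220400, had 929, 747 and 921 CPM in control, 543, 1230 and 730 CPM in mild drought and 736, 937 and 649 CPM in severe drought, a log2 difference of -0.16 (SE 0.33, edgeR adjusted p 0.938) between severe drought and control. Its neighbour SORBI_3004G220300, second in level at 165 FPKM, had 154, 49.7 and 657 CPM in control, 143, 1570 and 220 CPM in mild drought and 526, 869 and 512 CPM in severe drought. The spread within control and within mild drought was thus far wider for the second gene than for the first. SORBI_3006G148800 on chromosome 6 had 20.2, 4.26 and 75.9 CPM in control, 15, 292 and 66.3 CPM in mild drought and 62.8, 112 and 109 CPM in severe drought. Its neighbour SORBI_3006G148900 had 23.1, 4.02 and 8.41 CPM in control, 11.6, 19.8 and 9.44 CPM in mild drought and 9.35, 10.4 and 0.838 CPM in severe drought. The groups overlapped for all 7 tested genes of the family, in all 3 comparisons. SORBI_3004G220500 and SORBI_3004G220600 kept a count ratio between 1.03 and 1.08 in all 9 libraries, and no sequence was compared. Reads may be shared between the neighbouring genes, so their separate counts are uncertain.

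Of the 4-coumarate--CoA ligases, ligase 3 (SORBI_3004G062500) had 43.3, 34.2 and 132 CPM in control, 30.9, 209 and 57.5 CPM in mild drought and 73.2, 134 and 116 CPM in severe drought. Ligase 4 (SORBI_3010G214900) had 19.7, 14.1 and 58.5 CPM in control, 16, 90.5 and 35.9 CPM in mild drought and 34, 37.9 and 29.8 CPM in severe drought. The groups overlapped for both, and mild drought 2 was highest for both. For ligase 4 the log2 difference of severe drought from control was 0.14 with all libraries and 1.00 without control 3 and mild drought 2 (DESeq2 adjusted p 0.101). The ligase-like genes are relatives of less certain substrate. Ligase-like 1 (SORBI_3001G500800), the most abundant of them at 48.6 FPKM, had 144, 231 and 125 CPM in control, 149, 107 and 228 CPM in mild drought and 95.5, 141 and 174 CPM in severe drought. Ligase-like 5 (SORBI_3003G391600) had 141, 133 and 78.1 CPM in control, 72.7, 70.2 and 88.9 CPM in mild drought and 102, 100 and 91.6 CPM in severe drought. Its log2 difference for mild drought against control was -0.60 (SE 0.23, edgeR adjusted p 0.725), and these groups overlapped because control 3 lay below mild drought 3. Ligase-like 3 (SORBI_3004G350600) had no read in any severe drought library and 0.291, 1.76 and 0.34 CPM in control, which is at least 17.1-fold lower in severe drought when its floor is set at 3 counts over the group. That limit rests on control 2, and without it it is at least 7.49-fold. Mild drought had 0, 1.04 and 0.88 CPM of it, and edgeR's adjusted p for severe drought against control was 0.489.

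The methylating steps are carried by few genes in these leaves. The caffeic acid O-methyltransferase SORBI_3007G047300 had 66.3, 51.7 and 214 CPM in control, 49.5, 293 and 101.2 CPM in mild drought and 132, 301 and 296 CPM in severe drought. Caffeoyl-CoA O-methyltransferase 1 (SORBI_3010G052200) had 19.4, 14.7 and 64.7 CPM in control, 10.5, 78.8 and 16.6 CPM in mild drought and 28.4, 64.2 and 48.2 CPM in severe drought. In both genes every severe drought library lay above control 1 and 2, while control 3 was higher than at least 1 of them, with log2 differences of 1.13 (SE 0.73, edgeR adjusted p 0.718) and 0.51 (SE 0.8, adjusted p 0.913). The second caffeic acid O-methyltransferase by level, SORBI_3002G325000, had a mean of 0.0489 CPM in control and was not tested.

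Caffeoylshikimate esterase frees caffeate for the pathway. SORBI_3001G270400 had 58, 47.2 and 61.6 CPM in control, 46.1, 23.6 and 35.7 CPM in mild drought and 34.2, 34.2 and 31.7 CPM in severe drought. SORBI_3003G261500 had 14.3, 12 and 11.5 CPM in control, 9.58, 9.06 and 9.68 CPM in mild drought and 7.95, 8.57 and 8.13 CPM in severe drought. Both drought groups lay below control without overlap in both genes. The log2 differences for severe drought against control were -0.74 (SE 0.24, edgeR adjusted p 0.449, DESeq2 0.202) and -0.61 (SE 0.18, edgeR 0.422, DESeq2 0.0605), so neither test called them. The model of the first gene shares 4003 bases with a transposon gene, so its counts are uncertain. A fatty alcohol:caffeoyl-CoA acyltransferase (SORBI_3010G040200), whose match makes esters of suberin-associated waxes, had 5.59, 5.64 and 9.56 CPM in control, 6.08, 9.01 and 3.56 CPM in mild drought and 3.06, 4.33 and 3.3 CPM in severe drought. Severe drought lay below control there too, at a log2 difference of -0.96 (SE 0.39, edgeR adjusted p 0.543).

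The reducing enzymes were mixed. The most abundant cinnamoyl-CoA reductase, SORBI_3007G141200, had 28.4, 14.9 and 198 CPM in control, 12.7, 291 and 33.8 CPM in mild drought and 105.5, 116 and 98.1 CPM in severe drought. Like Laccase-7, it was even within severe drought and split by the outlying library in the other groups. The next, SORBI_3002G249900, had 89.6, 84.8 and 83.8 CPM in control, 76.7, 62.9 and 97 CPM in mild drought and 125, 95.6 and 104 CPM in severe drought. Severe drought lay above control, by 0.33 (SE 0.19, edgeR adjusted p 0.682). A lower one, SORBI_3010G195500, had 6.83, 5.81 and 12.4 CPM in control, 4.03, 7.05 and 0.8 CPM in mild drought and 3.98, 4.1 and 3.25 CPM in severe drought, which placed severe drought below control (log2 difference -1.14, SE 0.65, edgeR adjusted p 0.678).

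Cinnamyl alcohol dehydrogenase makes the alcohols that laccases polymerise. Of the 2 most abundant genes of this family, dehydrogenase 8B (SORBI_3002G195700) lay between 61.1 and 85.5 CPM over all libraries. A dehydrogenase 1 gene (SORBI_3010G071800) lay between 26.9 and 60.4 CPM. It had 60.4, 38.5 and 38.7 CPM in mild drought and 37, 32.5 and 32.2 CPM in severe drought, without overlap. Severe drought lay wholly below mild drought in 3 of the 8 tested genes and wholly above in 0, beside 4.83% and 2.99% of all genes. SORBI_3004G071000 (chromosome 4, 5728604 to 5734362), named after its values were seen, had 6.91, 4.8 and 12 CPM in control, 7.6, 33.5 and 11.1 CPM in mild drought and 20.7, 27.6 and 30.2 CPM in severe drought. Severe drought lay above control without overlap, at a log2 difference of 1.72 (SE 0.56), with an adjusted p of 0.452 by edgeR and 0.0957 by DESeq2.

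Counting all 99 tested genes, severe drought lay wholly above control in 8 genes (8.08%) and wholly below in 11 (11.1%), beside 7.64% and 9.82% of all genes. For mild drought against control the counts were 5 above (5.05%) and 4 below (4.04%), beside 6.2% and 6.38%. For severe against mild drought they were 5 above (5.05%) and 6 below (6.06%), beside 2.99% and 4.83%. The shares for the drought groups against control were near the background. The genes varied widely around their group means. Their median biological coefficient of variation in edgeR was 0.54, against 0.366 for all genes, and groups accounted for a median of 23.8% of a gene's variance, against 23.1%.

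Leaving out control 3 and mild drought 2, a choice made after the values were seen, left 2 control, 2 mild drought and 3 severe drought libraries. It took out the control and the mild drought library with the highest vascular marker sum and the highest score on the first principal component, but kept severe drought 2 with 51.37 FPKM of those markers and severe drought 1 and 2 with scores of 36.5 and 27.9. A gene that follows the marker sum or the component can then be higher in severe drought through that choice. The counts below are therefore a description of the remaining libraries, in which drought and these measures cannot be told apart. edgeR still called none of the 99 genes, and it called 1, 24 and 0 of all genes in the comparisons in the order above (0.00453%, 0.109% and 0.0%). At an unadjusted p under 0.05 it listed 6, 38 and 22 of the 99, beside 7.14%, 13.4% and 6.38% of all genes. DESeq2 then called 16 of the 99 higher (16.2%) and 6 lower (6.06%) in severe drought than in control, beside 3.71% and 1.99% of all genes. Given with edgeR's log2 differences, the 16 included genes from phenylalanine ammonia-lyase (SORBI_3004G220300, 2.64, and SORBI_3006G148800, 2.94) through 4-coumarate--CoA ligase 3 (1.47), caffeoyl-CoA O-methyltransferase 1 (1.46), caffeic acid O-methyltransferase (2.04), cinnamoyl-CoA reductase (SORBI_3007G141200, 2.29) and cinnamyl alcohol dehydrogenase (SORBI_3004G071000, 2.15) to 4 laccases. The secondary-wall subunits 7 (3.36) and 9 (2.99) were among them and subunit 4 (2.55) was not. The rest were subunit 5, COBRA-like protein 6 and the H1 gene SORBI_3006G080800. The 6 lower genes were COBRA-like protein 1, the COBRA-like protein 7 gene SORBI_3002G427400, cellulose synthase-like proteins E2 and G2, the esterase SORBI_3001G270400 and the cinnamoyl-CoA reductase SORBI_3007G063300. For severe against mild drought DESeq2 called 12 of the 99 higher (12.1%), beside 0.72% of all genes, and none lower, beside 0.222%. For mild drought against control it called none higher, beside 0.765%, and 2 lower (2.02%), beside 0.675%, which were cellulose synthase-like protein E2 and ligase-like 5. All severe drought comparisons share their libraries, so these lists are not independent.

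**Figure D5:**
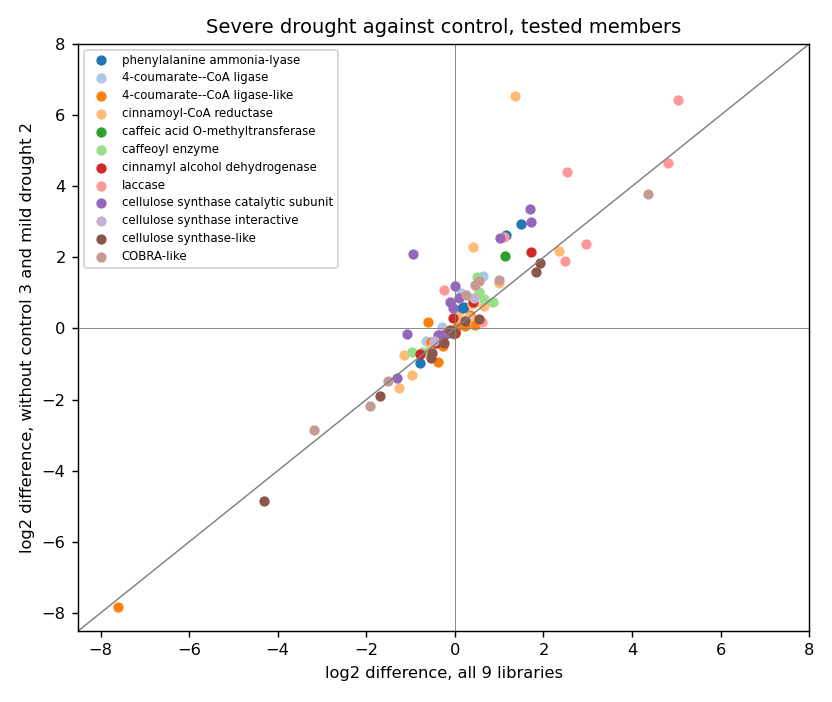
Log2 difference from edgeR between severe drought and control for each tested gene, with all 9 libraries (x axis) and without control 3 and mild drought 2 (y axis), coloured by family; the diagonal marks equal values. Several laccases, cellulose synthase subunits and phenylalanine ammonia-lyases lie above the diagonal, and the 4 genes called by DESeq2 with all 9 libraries, at 5.03, 4.81, -1.51 and -1.70 on the x axis, keep their sign.

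Other genes of the same pathways, listed by name, were 48, of which 25 could be tested. They hold the hydroxylases of lignin synthesis, dirigent proteins, sucrose synthases, chitinase-like proteins and xylan synthases. edgeR called none in any comparison, and DESeq2 called 1 lower for mild drought against control, beside 0.394% of all genes. That gene, Dirigent protein 1 (SORBI_3005G192600), had 19, 15.5 and 16.7 CPM in control, 8.26, 3.77 and 6.88 CPM in mild drought and 27.4, 18.8 and 11.6 CPM in severe drought. Mild drought lay below control without overlap (log2 difference -1.44, DESeq2 adjusted p 0.0466, edgeR adjusted p 0.562), while severe drought overlapped control. Sucrose synthase 4 (SORBI_3001G378300), whose relatives supply UDP-glucose to cellulose synthesis, had 17.5, 15.7 and 32.1 CPM in control, 28.6, 38 and 35.6 CPM in mild drought and 31.7, 44.5 and 38.1 CPM in severe drought, with an edgeR p of 0.0203 before adjustment and a log2 difference of 0.81 for severe drought. The other genes named by their small p were sucrose synthase 2 (SORBI_3001G344500), cytochrome P450 84A1 (SORBI_3001G196300) and 3 dirigent proteins (SORBI_3002G005100, SORBI_3002G005200 and SORBI_3002G005400), whose edgeR p before adjustment lay between 0.0862 and 0.147. Dirigent proteins set the coupling of lignin-type alcohols. The cinnamate hydroxylase SORBI_3002G126600, named after its values were seen as the most abundant of the 25 at 227 FPKM, lay between 481 and 817 CPM with overlapping groups. In 9 of the 25, control 3 and mild drought 2 were both above the other 7 libraries, and in none were both below, beside 11.3% and 7.26% of all genes.

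Many of the genes lie side by side. Within 50 kb of a gene of their own family lay 58 of the 154, in 19 groups, and in 9 of the 19 a single gene held at least 90% of the summed FPKM. The cellulose synthase-like group on chromosome 2, 62809958 to 62878445, has 3 genes, of which E6 held 94.2% of the summed FPKM. The group of 4 cinnamyl alcohol dehydrogenases on chromosome 2, 58394424 to 58410895, had 99.8% in SORBI_3002G195700. The 5 phenylalanine ammonia-lyase genes on chromosome 4, 57051383 to 57101791, had 51.4% in SORBI_3004G220400, and all 5 were present. Gene models overlapped another model in 22 of the 154, and 8 of these overlapped another of the 154. The labels call the libraries strand-specific, but no source at hand states the strand setting of the counting, so counts of overlapping models may mix.

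Deposited long non-coding transcripts carried the identifiers of 5 of these genes, 6 transcripts in all. The largest was an intronic one of cellulose synthase-like protein E1 (SORBI_3002G237800), with 691 counts over the 9 libraries, which equals 12.8% of the counts of that gene. It had 61, 130 and 66 counts in control, 83, 120 and 37 in mild drought and 75, 44 and 75 in severe drought, with overlapping groups. An antisense transcript of 4-coumarate--CoA ligase 5 (SORBI_3007G145600) had 16 of its 18 counts in mild drought 2. The counts of the other 4 transcripts summed to between 36 and 306.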

How the data were processed

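Leaf RNA was measured in 9 strand-specific libraries, 3 per group, and grouped by the treatment in the labels. The submitters' processing notes name HISAT2 2.0.4, STAR and StringTie 1.3.3b, with no role given, and no label or file header names the genome build. The authors deposited raw read counts per gene, not normalized, and FPKM per gene; coordinates are those of the deposited tables. Genes were the 34366 entries of the mRNA table, taken from 44775 in the count table.

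Counts were tested with edgeR 4.0.16 (R 4.3.3, TMM scaling, filterByExpr, glmQLFTest, all 9 libraries in 1 fit), with Benjamini-Hochberg adjustment over 22080 genes and a threshold of 0.05. The standard error is the size of the log2 difference divided by the square root of F. FPKM was used to compare genes, and CPM to compare libraries. DESeq2 1.42.0 and limma 3.58.1 on log2 FPKM were alternatives. Totals of 27854146 to 41228478 counts per library set the precision.

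The set, its lists and the rules were chosen with earlier results of these data known. Named are the 2 most abundant genes of each family, the 5 with the smallest edgeR p per comparison, genes called by edgeR or DESeq2, the 3 highest and 3 lowest log2 differences per comparison among genes with a mean of at least 5 CPM, genes with both drought groups on 1 side of control at that level, and all cellulose synthase subunits at that level. This gave 42 genes. Of the other pathway genes, the 3 with the smallest p per comparison are named. Ligase-like genes and interactive proteins were set apart as families after the files were seen. Besides the markers given above, seed markers summed to between 0.05 and 8.93 FPKM. No sequence is shown because no sequence was at hand.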

Additional observations from a re-analysis of the deposited data

How the results depend on the processing

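The 3 comparisons were run under 20 alternatives, and DESeq2 was also run without each of the 9 libraries in turn, which was added after the edgeR counts were seen. edgeR called 0 of the 99 genes under every edgeR alternative, and limma on FPKM called 0 as well, so the calls rest on the choice of DESeq2. DESeq2 called 4 for severe drought against control. Without control 3 and mild drought 2, a choice made after seeing the data, it called 2 for mild drought against control, 22 for severe drought against it and 12 for severe against mild. In that order, with single libraries left out its calls ranged from 0 to 3, from 3 to 8 (8 without mild drought 2, 7 without control 3) and from 0 to 2. Over all genes edgeR called 0 each time, between 0 and 1 with single libraries left out, 2 in severe drought against control with only the 6 libraries compared, and 1 and 24 without both libraries for the drought groups against control. DESeq2 called 208, 337 and 23 of all genes, and 318, 1258 and 208 without both libraries. limma on log2(FPKM + 1) and on log2(FPKM + 0.1) called 2 of all genes in mild drought against control.

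Without both libraries, DESeq2 called 3 differences whose sign differed from edgeR's with all 9: Laccase-7 (SORBI_3003G357600) for severe drought against control (1.08), and SORBI_3007G141200 (2.19) and SORBI_3004G220300 (1.81) for severe against mild drought. Among 41 named genes tested, the sign was kept under every alternative that gave a value (18 for SORBI_3004G350600, 20 for the rest) in 10, 27 and 19, and changed under at least 1 in 31, 14 and 22, so directions of uncalled genes are not firm. The median of the 99 genes was -0.445 for mild drought against control and 0.391 for severe against mild drought without mild drought 2. The FPKM scale moved the median of all genes to -0.225 for severe drought against control with a pseudocount of 1, and to -0.288 with 0.1. The labels do not say whether the replicate number pairs libraries. Around their group means same-numbered libraries correlated between -0.374 and 0.371, and differently numbered ones between -0.416 and 0.551. With so few libraries, 2 of them outlying, these values cannot decide it. The replicate block called 0 of the 99 genes in each comparison. Low counts limit the 55 untested genes. The cause of these changes was not tested.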
